A study of Arabidopsis thaliana with 11 samples.

Results

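The most abundant transcripts of Arabidopsis torpedo-stage embryos were taken as the 200 probe sets whose lowest normalised signal over 11 arrays was highest, of 22596 probe sets ranked. The members were thus chosen by the lowest of their own 11 signals, and their levels are a description. Chip controls were left out of the ranking, as were 150 probe sets numbered as organelle genes. Expression was measured on Affymetrix ATH1 arrays, whose probe sets each read a transcript through several short probes that follow the Col-0 sequence. The values are log2 signals, so that a difference of 1 is a 2-fold difference. Because brightness depends on how well the probes of a set bind as well as on the amount of transcript, the rank orders signals and gives no ratio between genes.

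All plants were wild type, and whole embryos at the torpedo stage were dissected out of the seed and pooled for each accession. The accessions differ in whether shoot stem cells of the embryo need the ARGONAUTE protein ZLL (AGO10). Fe-1, Bay-0, Nw-0 and Ler-0 are labelled ZLL-dependent, and Van-0, Col-0 and Ts-1 ZLL-independent. Fe-1 and Col-0 were each measured with 3 arrays, which the labels call biological replicates, and the other accessions with 1 array each. The p-values between accessions therefore rest on the spread within Fe-1 and Col-0. Those by ZLL dependency rest on the spread of arrays within each ZLL class, which includes differences between accessions. The labels name the Ler-0 array Ler-1 in one field, and give the Ts-1 array the name Tossa del Mar-0 in another.

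The signals of the 200 probe sets lay between 12.83 and 14.28. The median signal of all probe sets on an array lay between 7.57 and 7.71 and its highest signal between 14.19 and 14.28, so the members occupy the top of the scale. There the range of signals is bounded, and AT1G04660, the brightest probe set on 10 of the 11 arrays, has one identical value on 4 of them. The part of this bound in the ranges given below was not tested. When each array was ranked alone, its own 200 brightest probe sets held 178 to 186 of the members. The limit is not a natural gap: the probe set at rank 200 had a lowest signal of 12.832 and that at rank 201 one of 12.828. Just inside were AT2G27730, AT1G51650 (a subunit of mitochondrial ATP synthase) and AT4G26230 (ribosomal protein L31), at ranks 191, 194 and 199. Just outside were AT4G25740 (ribosomal protein S10), CYTC-1 (cytochrome c) and AT3G11630 (2-Cys peroxiredoxin), at ranks 201, 203 and 204. 1 organelle probe set, shared by both plastid rps7 copies, would also have been above the limit.

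A torpedo embryo has just laid out its cotyledons, hypocotyl and root and is turning to growth and the filling of reserves. Growth of this kind needs ribosomes, which are built from a large and a small subunit of RNA and many proteins. Plants carry several near-identical genes for most of these proteins, so a probe set can read more than one of them. Alongside ribosomes, a green oilseed embryo makes fatty acids in its plastids, packs oil into droplets coated by oleosins, and keeps photosynthetic chloroplasts inside the seed.

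Of the 200 members, 82 read 1 gene of the chip annotation, 17 are shared by several genes and 101 are not listed in the annotation used here. Cytosolic ribosomal proteins made up 60 members, which is 30% of the 200 and most of those with a gene. Of these, 47 read 1 gene and 13 are shared by paralogues. 37 read proteins of the large subunit, 22 those of the small subunit, and AT3G09200 reads P0, the base of the stalk that recruits elongation factors. Together they represent 45 of the 80 ribosomal proteins listed, 26 of the large subunit and 18 of the small one beside P0. Another 6 members serve translation more broadly, 7 oil, carbon and energy metabolism, 4 the chloroplast, 4 RNA binding, 4 the cell wall, apoplast or vacuole, and 2 the histones. The remaining 12 with a gene were left without a class. These classes were assigned after the members were known, and they are a description only.

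The rank was led by AT1G04660, which encodes a glycine-rich protein. Its signal was 14.28 in Bay-0, 14.19, 14.21 and 14.19 in Fe-1, 14.22 in Ler-0, 14.22 in Nw-0, 14.24, 14.22 and 14.22 in Col-0, 14.22 in Ts-1 and 14.22 in Van-0. All arrays lay within 0.09 of each other, at the upper end of the scale. Ribosomal protein genes took the next 7 ranks and 9 of the first 10 places among genes read alone. AT2G19730 and AT4G29410 (both L28), AT5G56710 (L31), AT5G20290 (S8), AT1G52300 (L37), AT3G62870 (L7a) and AT3G05560 (L22) held ranks 2 to 8, followed by AT3G06700 (L29) at rank 12 and AT2G34480 (L18a) at rank 13. Over these 9 genes the ranges of the accession means were between 0.07 and 0.19.

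**Figure D1:**
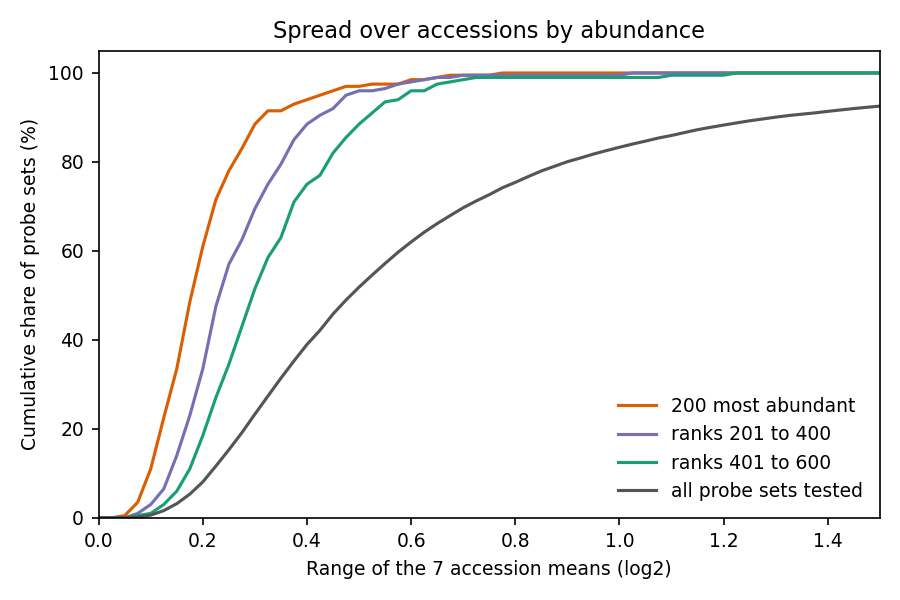
Cumulative share of probe sets (percent, vertical axis) whose 7 accession means span no more than the log2 range on the horizontal axis, for the 200 most abundant probe sets, the next 200 in each of a pair of rank bands, and all 22746 probe sets. The members rise first: 78% of them span less than 0.25, against 15.3% of all probe sets.

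The members spanned small ranges over the accessions. For each probe set, the arrays of an accession were averaged and the range of the 7 means was taken. The median range over the 200 members was 0.18, or 1.13-fold, while it was 0.23 at ranks 201 to 400, 0.30 at ranks 401 to 600 and 0.48 (1.40-fold) over all 22746 probe sets. All 200 spanned less than 2-fold, with ranges between 0.05 and 0.76, and 156 (78%) spanned less than 0.25. Choosing on the lowest of 11 signals favours even probe sets, and the upper end of the scale bounds them, so that this contrast with other ranks describes the members and was not tested. Replicates were also closer together, with a median SD within Fe-1 and Col-0 of 0.04 over the members and 0.11 over all probe sets.

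With limma's moderated F test over all 22746 probe sets, 7 of the 200 members differed between the 7 accessions at an adjusted p under 0.05 (Benjamini-Hochberg), or 3.5%, where 31.0% of all probe sets did. None of the 7 spanned 2-fold, as 14.2% of all probe sets did. This count rests on one prior spread shared by all signal levels. With an intensity trend and robust prior, where the prior follows signal strength and outlying variances are set apart, 37 members (18.5%) passed, beside 37.3% of all probe sets. The rule chose the members by their lowest signal on the same 11 arrays, which favours even probe sets, so these shares describe the members and nothing is read from their distance to the background.

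**Figure D2:**
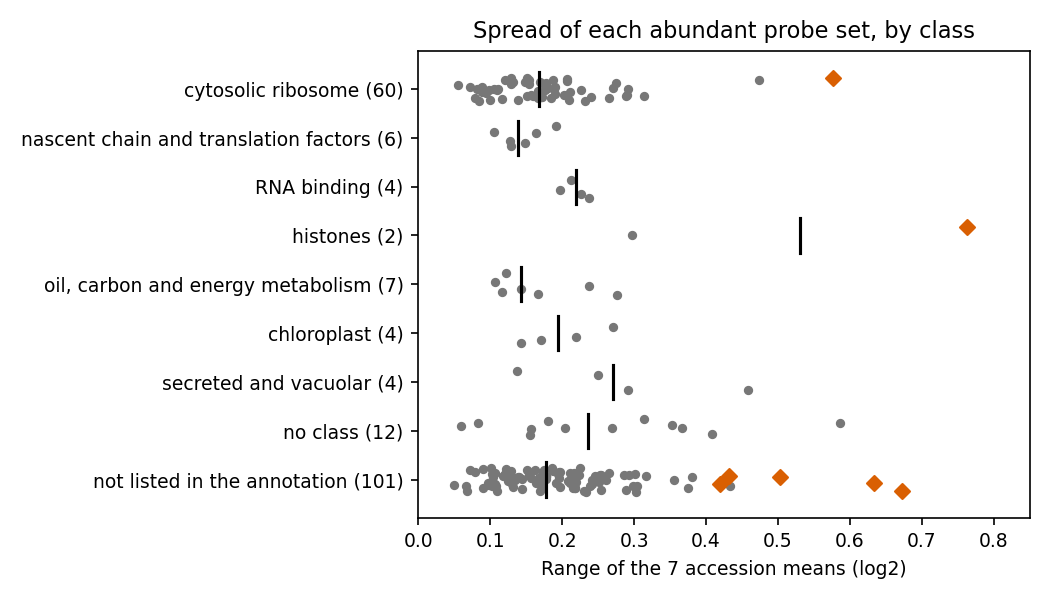
Range of the 7 accession means (log2, horizontal axis) of each of the 200 members, by class, with the number of members in parentheses. Each point is a probe set, black bars are class medians, and orange diamonds are the 7 that passed the moderated F test: 1 shared histone H4 set, 1 shared ribosomal L39 set and 5 unlisted sets.

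The ribosomal members had a median range of 0.17, beside 0.18 for all 200. Of the 60, 1 passed the F test, where 31.0% of all probe sets did, and it is a set shared by a pair of L39 genes. The steadiest gene with a name was AT5G15200, for protein S9 of the small subunit. Its signal was 13.68 in Bay-0, 13.75, 13.68 and 13.56 in Fe-1, 13.68 in Ler-0, 13.70 in Nw-0, 13.66, 13.68 and 13.61 in Col-0, 13.68 in Ts-1 and 13.68 in Van-0. The accession means spanned 0.06, less than the 0.19 between the outer Fe-1 arrays. Of the 10 genes with the smallest ranges, between 0.06 and 0.09, 8 are ribosomal: besides AT5G15200, AT3G06700 (L29), AT1G48830 (S7), AT4G17390 (L15), AT4G39200 (S25), AT3G02080 (S19), AT5G27770 (L22) and AT2G44120 (L7). The others are AT1G04660, which lies at the end of the scale, and AT2G37660, an NAD(P)-binding family protein.

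Paralogues that code for the same ribosomal protein could be compared in 15 pairs of 13 proteins. The difference between the members of a pair varied over the accessions by 0.08 for the S14 genes AT3G11510 and AT3G52580, and by 0.37 for the L17 genes AT1G67430 and AT1G27400. AT1G67430 was highest in Nw-0 (13.58) and lowest in Ts-1 (13.37), and AT1G27400 was highest in Bay-0 (13.16) and lowest in Ler-0 (12.90). In 6 of the 15 pairs both genes were highest in Nw-0, and of these the S14 genes were also both lowest in Ler-0. Of the 60 ribosomal members 37 were highest in Nw-0 as deposited, and 18 with quantile normalisation repeated. Agreement between paralogues is therefore not read from the 6 pairs.

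Ribosomal genes were also found outside the 200. The chip carries 154 probe sets for cytosolic ribosomal proteins. Their median rank was 290.5, and of the 94 that are not members 47 lay at ranks 201 to 600, 47 beyond 600 and 22 beyond 5000. The 94 had a median range of 0.36, between that of the members and the 0.48 of all probe sets, and 25 of them (26.6%, against 31.0%) passed the F test. In Fe-1 against Col-0, 18 of them were higher (19.1%, against 17.8%) and 4 lower (4.26%, against 11.4%) at an adjusted p under 0.05. AT4G25740 (S10) and AT2G36160 (S14), the brightest of them, stood at ranks 201 and 207 with ranges of 0.13 and 0.28.

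AT2G40010, another gene for P0, had the widest range of the 94 and was singled out after its values were seen. Its signal was 9.16 in Bay-0, 9.54, 9.61 and 9.41 in Fe-1, 8.65 in Ler-0, 9.17, 9.23 and 9.12 in Col-0 and 9.10 in Ts-1, but 4.56 in Nw-0 and 3.79 in Van-0. Nw-0 and Van-0 thus lay below the lower quartile of all signals on their arrays, at 4.97 and 5.04, and the other arrays at 8.65 or above (adjusted p = 6.8e-07, limma's moderated F test). The member gene for P0, AT3G09200, spanned 0.19, with 13.66 in Nw-0 and 13.48 in Van-0, its highest and lowest accession. Whether the probes of AT2G40010 match the transcript of those accessions was not tested.

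**Figure D3:**
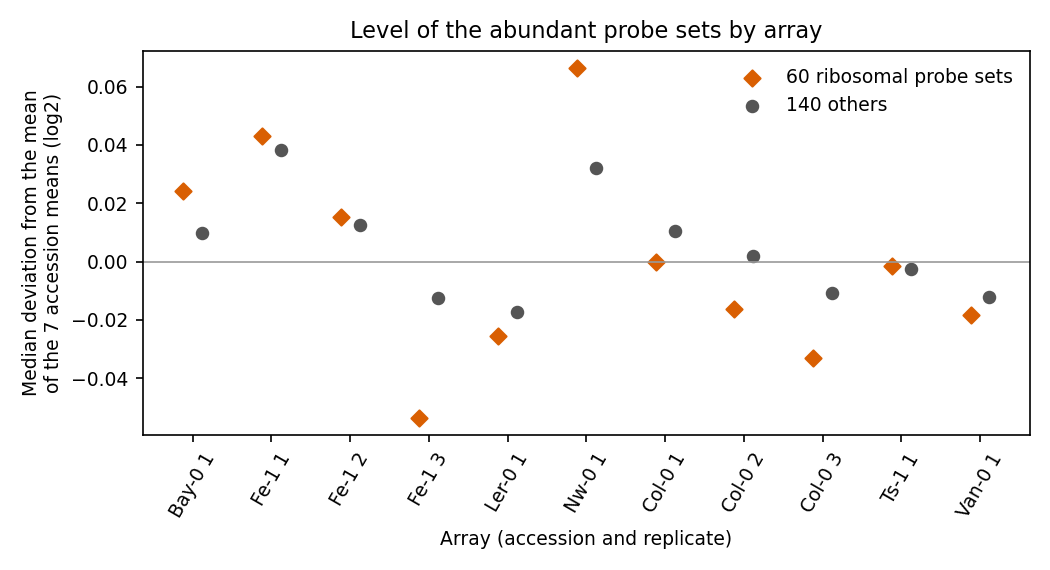
Median deviation (log2, vertical axis) of the 60 ribosomal members (diamonds) and the 140 other members (circles) from the mean of the 7 accession means, for each of the 11 arrays on the horizontal axis, ZLL-dependent accessions first. Nw-0 stands highest at 0.07 for the ribosomal set, and the 3 Fe-1 arrays run from 0.04 to -0.05.

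The ribosomal members differed between arrays by small amounts that depended on the scale. In Nw-0 their median deviation from the mean of the accessions was 0.07 as deposited, 0.02 with quantile normalisation repeated and 0.12 with arrays centred on their medians. As deposited, 37 of the 60 had their highest accession mean there. Nw-0 was also highest for 73 of all 200 members (36.5%) and for 15.3% of all probe sets. The ribosomal count was 18 of 60 with quantile normalisation repeated and 50 of 60 with centring, Nw-0 leading in both. Of all probe sets, 16.2% and 23.9% were then highest in Nw-0. The lowest means were most often in Ler-0, in 51 of the 200 as deposited, 44 with quantile normalisation repeated and 78 with centring. These are 25.5%, 22% and 39% of the members, beside 18.8%, 21.4% and 25.9% of all probe sets. Van-0 followed with 45 as deposited (22.5%, against 11.1% of all probe sets) and 61 with centring (30.5%, against 15.1%). With quantile normalisation repeated it was lowest in 28 (14%, against 14.1%), behind Col-0 (30) and Bay-0 (29), and highest in 33 (16.5%, against 14.2%). In the 3 Fe-1 arrays the ribosomal deviation was 0.04, 0.02 and -0.05, a span of 0.10 where the 7 accessions spanned 0.09, so a single array such as that of Nw-0 was not shown to differ beyond the spread between replicates.

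Among members that serve translation outside the ribosome itself, AT3G12390 and AT4G10480 (alpha subunits) and AT1G73230 (beta subunit) form the nascent polypeptide-associated complex, which receives new chains at the ribosome exit. AT5G19510 encodes a subunit of elongation factor 1B, which reloads elongation factor 1-alpha with GTP, and shared sets read the gamma subunit and elongation factor 1-alpha itself. Ranges of the 6 were between 0.11 and 0.19, and none passed the F test. AT1G73230 had signals of 13.08 in Bay-0, 13.22, 13.20 and 13.20 in Fe-1, 13.09 in Ler-0, 13.14 in Nw-0, 13.12, 13.13 and 13.11 in Col-0, 13.18 in Ts-1 and 13.17 in Van-0. The Fe-1 and Col-0 arrays did not overlap, as for 45.7% of all probe sets, but the difference of 0.09 ± 0.06 (SE) had an adjusted p of 0.32 (limma).

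Of the RNA-binding proteins, AT1G29250 belongs to the Alba family, AT5G47210 to the hyaluronan/mRNA-binding family and AT4G12600 to the L7Ae family, and AT1G20580 is a spliceosomal Sm protein. Their ranges lay between 0.20 and 0.24. AT5G47210 had 13.50 in Bay-0, 13.53, 13.53 and 13.43 in Fe-1, 13.37 in Ler-0, 13.45 in Nw-0, 13.34, 13.32 and 13.25 in Col-0, 13.45 in Ts-1 and 13.46 in Van-0. Col-0 held the 3 lowest of these signals. All 4 genes had higher means in Fe-1 than in Col-0, by a median of 0.13, where 61.6% of all probe sets were higher. With arrays centred on their medians 3 of the 4 were higher, beside 36 of the 200 members and 9889 of all 22746 probe sets. None of the 4 passed the test with the constant prior. With an intensity trend and robust prior AT5G47210 and AT1G29250 passed as higher (adjusted p = 0.0059 and 0.0083, limma), as did 4338 of all 22746 probe sets.

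The 7 members of oil, carbon and energy metabolism, among them the ATP synthase subunit AT1G51650, had ranges of 0.11 to 0.28. None passed a test with the constant prior. The oleosin alone did over accessions with an intensity trend and robust prior, where 37.3% of all probe sets did. TPI, the cytosolic triose phosphate isomerase of glycolysis, stood at rank 16 and lay between 13.70 (Van-0) and 13.88. AT1G24360, a reductase of plastid fatty acid synthesis, spanned 0.11, and cICDH, a cytosolic isocitrate dehydrogenase that forms NADPH, 0.12. AT2G34590, a subunit of the plastid pyruvate dehydrogenase that supplies fatty acid synthesis with acetyl-CoA, spanned 0.14. AT3G05500, a lipid droplet-associated protein, was at 13.18 in Bay-0 and between 13.32 and 13.47 on the other arrays.

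Markers of reserve filling were listed by symbol, and whether the chip reads more of them under locus names was not tested. Of the 15 listed, the annotation names only OLEO3, an oleosin. Its signal was 13.06 in Bay-0, 13.15, 13.12 and 13.20 in Fe-1, 13.19 in Ler-0, 12.91 in Nw-0, 13.11, 13.13 and 13.19 in Col-0, 12.99 in Ts-1 and 12.92 in Van-0. Nw-0, Van-0 and Ts-1 were the lowest 3, and the range of 0.28 did not pass the F test (adjusted p = 0.18, limma), nor did the oleosin differ between Fe-1 and Col-0 (0.01 ± 0.07 SE, adjusted p = 0.90). With an intensity trend and robust prior the adjusted p over accessions was 0.016.

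The chloroplast members were LHCB4.1, an antenna protein of photosystem II, PSAN, a subunit of photosystem I, AT1G74470, the geranylgeranyl reductase that makes the phytol tail of chlorophyll, and AT3G54210, a protein of the plastid ribosome. AT1G74470 had 13.07 in Bay-0, 12.98, 12.99 and 13.01 in Fe-1, 13.27 in Ler-0, 13.09 in Nw-0, 13.10, 13.20 and 13.25 in Col-0, 13.02 in Ts-1 and 13.25 in Van-0. Fe-1 held the lowest 3 signals. All 4 chloroplast members had lower means in Fe-1 than in Col-0, where 38.4% of all probe sets were lower as deposited. They were also lower after median centring, but so were 164 of the 200 members and 12857 of all 22746 probe sets. The median difference of the 4 was -0.14 as deposited, and the arrays of both accessions did not overlap, as for 45.7% of all probe sets. None passed the test with the constant prior, and 3 of the 4 did with an intensity trend and robust prior, beside 31.5% of all probe sets.

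Of the secreted or vacuolar members, AT5G38160 and AT5G38170 code for lipid transfer proteins, which bind lipids outside the cell, and are next to each other on chromosome 5. AT2G34700 belongs to the Ole e 1 and extensin family and APA1 is a vacuolar aspartic proteinase. AT5G38170 had 13.35 in Bay-0, 13.03, 13.11 and 13.22 in Fe-1, 13.32 in Ler-0, 12.89 in Nw-0, 13.24, 13.24 and 13.40 in Col-0, 13.23 in Ts-1 and 13.08 in Van-0. Its neighbour AT5G38160 had 13.12 in Bay-0, 13.12, 13.19 and 13.28 in Fe-1, 13.41 in Ler-0, 13.16 in Nw-0, 13.43, 13.35 and 13.43 in Col-0, 13.26 in Ts-1 and 13.26 in Van-0. Both were lower in all Fe-1 arrays than in any Col-0 array and high in Ler-0, while Bay-0 was high for the former and low for the latter. Neither passed the F test at ranges of 0.46 and 0.29 with the constant prior. With an intensity trend and robust prior both did over accessions, as did 37.3% of all probe sets. Both then also passed as lower in Fe-1, as did 2835 of all 22746 probe sets. Arrays of Fe-1 and Col-0 did not overlap for 45.7% of all probe sets.

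In some members a single accession stood apart, with a distance to the next of at least 50% of the whole range. This held for 36 of the 200, or 18%, close to the 17.4% of all probe sets. The accession was low in 26 and high in 10, that is 13% and 5%, while over all probe sets it was 7.5% low and 9.9% high. Because members lie at the upper end of the scale, which bounds high values, this split into low and high only describes them. The part of the bound in it was not tested. Ler-0 was the low accession in 9 members (4.5%, against 1.9% of all probe sets) and Van-0 in 7 (3.5%, against 0.94%).

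**Figure D4:**
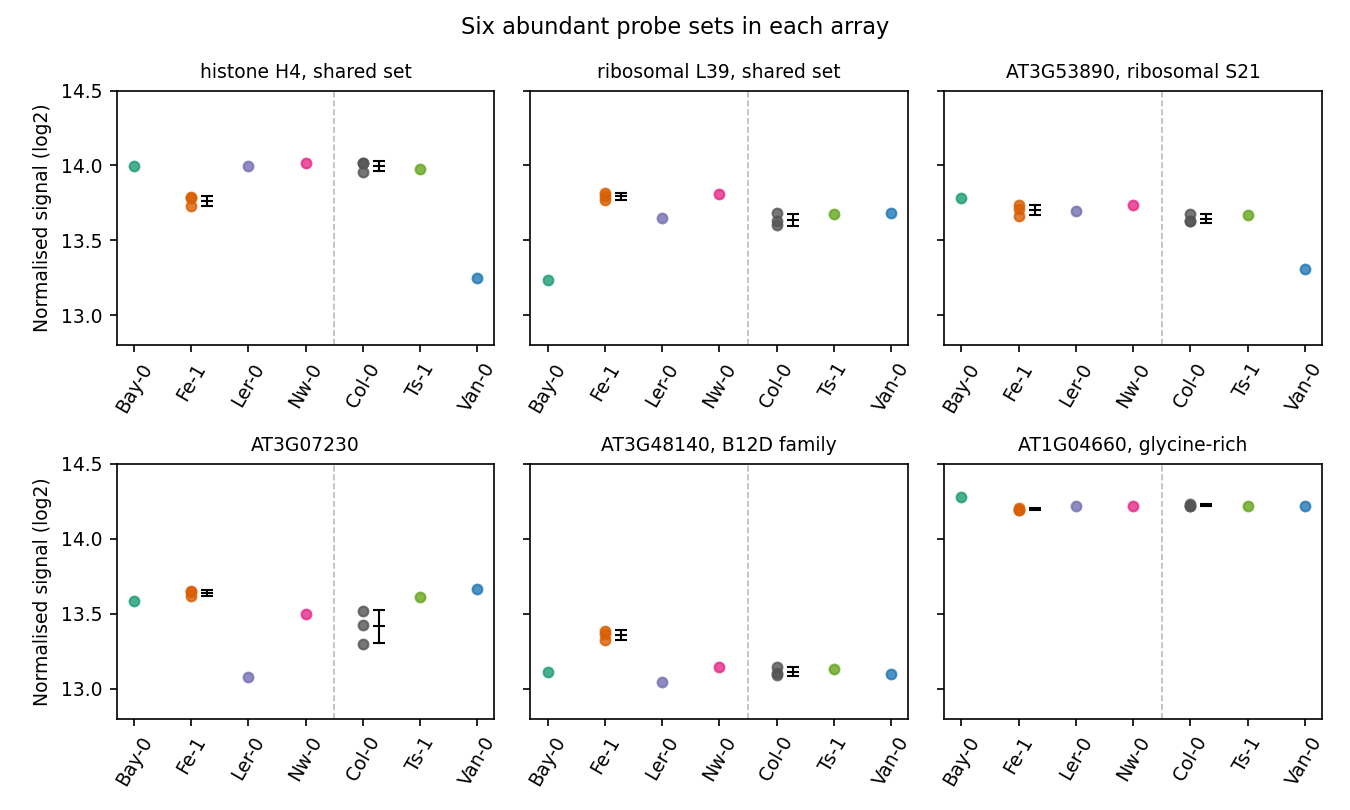
Normalised signal (log2, vertical axis) on each of the 11 arrays for 6 members, by accession, with ZLL-dependent accessions left of the dashed line. Points are arrays, and bars beside Fe-1 and Col-0 give the mean and SD of 3 arrays. Van-0 is low for histone H4 (13.25) and AT3G53890 (13.31), Bay-0 for L39 (13.23) and Ler-0 for AT3G07230 (13.08), Fe-1 is high for AT3G48140, and AT1G04660 is level.

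The widest member was a probe set shared by 8 genes for histone H4, a core protein of the nucleosome. Its signal was 13.995 in Bay-0, 13.78, 13.79 and 13.73 in Fe-1, 13.99 in Ler-0, 14.01 in Nw-0, 14.02, 13.96 and 14.02 in Col-0, 13.98 in Ts-1 and 13.25 in Van-0. 7 arrays of 5 accessions lay together, the 3 of Fe-1 just below, and Van-0 stood 0.51 under Fe-1. The range of 0.76 passed the F test (adjusted p = 0.0076, limma), and it was 0.25 without Van-0. The other histone member, shared by 3 genes for the replacement variant of histone H3, lay between 13.001 and 13.32, with Van-0 at 13.13, so Van-0 was not the lowest accession there. Shared and unlisted probe sets are outside the rule by which genes were named and were chosen after their values were seen.

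Both probe sets that the annotation gives to the L39 genes AT4G31985 and AT2G25210 were members, and their signals differed in pattern. Whether each set reads 1 of these genes or both was not tested. The first had 13.23 in Bay-0, 13.82, 13.77 and 13.80 in Fe-1, 13.65 in Ler-0, 13.81 in Nw-0, 13.68, 13.63 and 13.60 in Col-0, 13.67 in Ts-1 and 13.68 in Van-0. The second had 13.65 in Bay-0, 13.60, 13.56 and 13.47 in Fe-1, 13.49 in Ler-0, 13.55 in Nw-0, 13.52, 13.48 and 13.45 in Col-0, 13.61 in Ts-1 and 13.61 in Van-0. Bay-0 was the lowest accession by the first set (adjusted p = 0.034 over the 7 accessions, limma) and the highest by the second (adjusted p = 0.69). The chip's probes follow the Col-0 sequence, and their match to the other accessions was not tested.

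AT3G53890, for ribosomal protein S21, was low in Van-0. It had 13.78 in Bay-0, 13.74, 13.71 and 13.66 in Fe-1, 13.69 in Ler-0, 13.73 in Nw-0, 13.68, 13.63 and 13.63 in Col-0, 13.67 in Ts-1 and 13.31 in Van-0. All arrays but that of Van-0 lay within 0.16, and the range of 0.47 missed the threshold (adjusted p = 0.094, limma's F test). AT3G53890 passed that test under 3 of the 19 alternatives run. The other S21 gene, AT5G27700 at rank 391, had 12.64 in Van-0, inside its spread of 12.53 (Fe-1) to 13.06 (Nw-0) over accession means. AT2G41650 showed the same form, with 13.03 in Van-0 and between 13.30 and 13.38 on the other 10 arrays (range 0.35, adjusted p = 0.19). AT5G46020 had 13.07 in Van-0 and 13.24 to 13.43 elsewhere (range 0.37, adjusted p = 0.17). Each passed under 2 of the 19 alternatives.

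Ler-0 stood apart for AT3G07230, which had the largest range of a gene read alone. It had 13.59 in Bay-0, 13.62, 13.65 and 13.65 in Fe-1, 13.08 in Ler-0, 13.50 in Nw-0, 13.43, 13.52 and 13.30 in Col-0, 13.61 in Ts-1 and 13.67 in Van-0. Its range of 0.59 had an adjusted p of 0.052 (limma's F test). It passed that test under 9 of the 19 alternatives run. AT5G02450 (L36) and AT5G52650 (S10) were also lowest in Ler-0, at 13.01 and 13.14, with ranges of 0.31 and 0.28. Among the 10 widest genes were further AT2G36930, highest in Bay-0 at 13.33 with a range of 0.41, and AT3G49910 (L26), highest in Nw-0 at 13.39 with a range of 0.29.

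**Figure D5:**
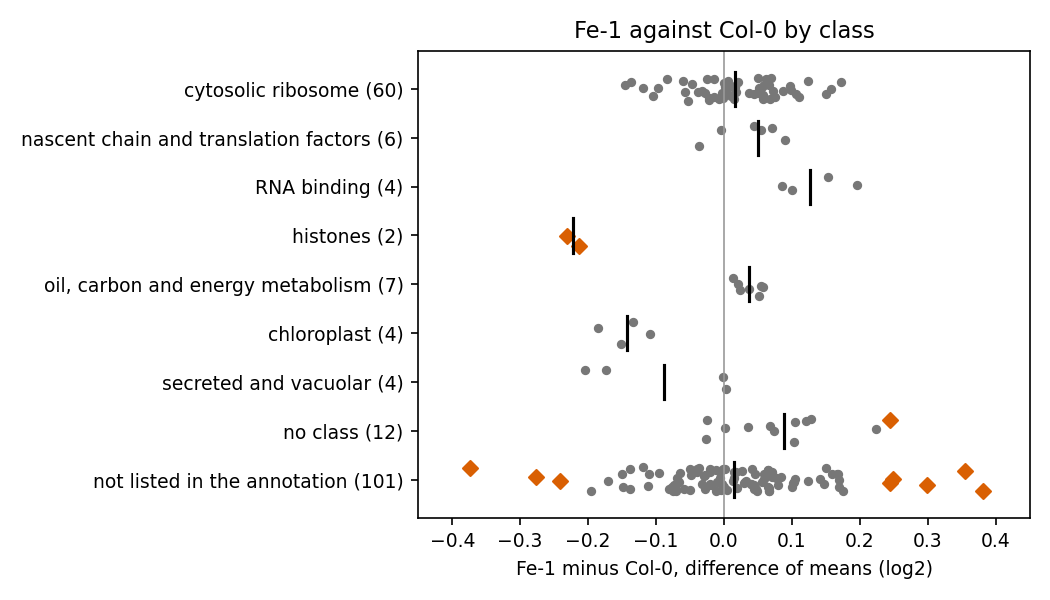
Difference of the means of the 3 Fe-1 and 3 Col-0 arrays (log2, horizontal axis, positive where Fe-1 is higher) for each of the 200 members, by class with the number of members in parentheses. Black bars are class medians, and orange diamonds are the 11 probe sets that passed limma's test: AT3G48140, both histone sets and 8 unlisted sets. All lie within 0.38 of zero.

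Fe-1 and Col-0, the accessions with replicates, were compared directly. With limma's moderated test 11 of the 200 members differed at an adjusted p under 0.05, 5.5% where 29.3% of all probe sets did. Fe-1 was higher in 6 (17.8% of all probe sets were higher) and lower in 5 (11.4% were lower). None differed 2-fold, as 4.0% of all probe sets did, and the largest difference was 0.38. Leaving out any 1 of the 6 arrays lowered the count from 11 to between 3 and 6. The shares of all probe sets in those smaller fits are not set beside these counts. Whether the members or the whole chip moved is therefore not read from them. Arrays of both accessions did not overlap for 77 of the 200 (38.5%) and for 45.7% of all probe sets. With an intensity trend and robust prior 41 members passed (20.5%, against 31.5%), 22 higher and 19 lower. With arrays centred on their medians 16 passed (8%, against 28.1%), 1 higher and 15 lower. Of all 200 members 118 had a higher mean in Fe-1 as deposited and 36 after that centring, so the direction of small differences depends on the scale.

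AT3G48140, of the B12D family, was the only gene read alone that passed. It had 13.39, 13.36 and 13.32 in Fe-1 and 13.15, 13.10 and 13.09 in Col-0. Nw-0 had 13.15, Ts-1 13.13, Bay-0 13.11, Van-0 13.10 and Ler-0 13.04. Fe-1 was thus above every other array, and its excess over Col-0 was 0.24 ± 0.06 (SE, n = 3 and 3, adjusted p = 0.025, limma). The adjusted p was 0.18 with arrays centred on their medians and up to 0.086 without any 1 array. Of the 60 ribosomal members 0 passed, where 29.3% of all probe sets did. At an unadjusted p under 0.05 there were 3, beside 9183 of all 22746 probe sets. With an intensity trend and robust prior 4 passed as higher in Fe-1 and 2 as lower, beside 4338 and 2835 of all probe sets.

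Both histone members were lower in Fe-1. The difference from Col-0 was -0.23 ± 0.06 (SE, adjusted p = 0.031, limma) for H4. It was -0.21 ± 0.06 (SE, adjusted p = 0.038, limma) for the H3 variant, which had 13.001, 13.05 and 13.005 in Fe-1 and 13.25, 13.20 and 13.24 in Col-0. The arrays of both accessions did not overlap for either set, as for 45.7% of all probe sets. Without any 1 of the 6 arrays neither passed, at adjusted p between 0.051 and 0.082 for H4 and between 0.067 and 0.11 for the H3 variant.

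Of the 8 unlisted sets, probe set 246003_at separated Col-0 from every other accession. It had 13.32, 13.27 and 13.22 in Col-0, 12.94, 12.86 and 12.89 in Fe-1, 12.84 in Van-0, 12.89 in Ts-1 and 12.90 in each of Ler-0, Nw-0 and Bay-0. Its Fe-1 minus Col-0 difference was -0.37 ± 0.07 (SE, adjusted p = 0.0051, limma). The chip's probes follow the Col-0 sequence, and whether those of 246003_at match the other accessions was not tested. Probe set 245306_at was the reverse, with 13.03, 12.98 and 12.95 in Col-0, 13.13 in Ts-1 and between 13.27 and 13.49 on the other arrays (Fe-1 minus Col-0 0.38 ± 0.07 SE, adjusted p = 0.0048).

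No member passed a test by ZLL dependency. At an adjusted p under 0.05, 0 of the 200 differed between the 6 arrays of ZLL-dependent and the 5 of ZLL-independent accessions (limma), beside 0.448% of all probe sets. At an unadjusted p under 0.05 there were 10 members (5%), against 17.4% of all probe sets, and 0 passed with 1 mean per accession or accession as a random block. Leaving out Van-0 gave 2 members, both higher in the ZLL-dependent accessions. The share of all probe sets in that fit is not set beside this count, so nothing is read from it. The replicate arrays of Fe-1 and of Col-0 count separately here although they share an accession.

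Genes of members were short. The 82 read alone had a median length from start to end of 1665.5 bases in the TAIR10.1 gene table, where all 13436 matched genes of the chip had 2117 bases. Of the 82, chromosome 3 carried 25 (0.91% of its matched genes) and chromosome 5 19 (0.63%). Chromosome 1 carried 17 (0.49%), chromosome 2 12 (0.55%) and chromosome 4 9 (0.46%).

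Signals of other seed tissues were looked at with markers that the annotation names. AGL62 and IKU2, of the endosperm, lay between 3.53 and 4.0 on all arrays, below the lower quartiles of 4.92 to 5.04. They are 2 of the 10 endosperm markers listed, and whether endosperm was carried over was not tested. BAN, of the seed coat, had 8.77 and 7.40 on Fe-1 replicates 2 and 3 and 7.61 in Van-0, and between 4.67 and 5.95 elsewhere. DFR, of the same pathway, was at 9.51, 7.53 and 7.43 on those arrays, 7.97 in Ler-0 and 5.28 to 6.33 on the rest. CLV3, of the shoot stem cells, lay between 4.73 and 6.12. With Fe-1 replicates 2 and 3 and Van-0 left out, 0 members passed between accessions and 0 between Fe-1 and Col-0, from 1 Fe-1 array, beside 12.6% and 8.93% of all probe sets, and at an unadjusted p under 0.05 there were 5 and 7. The median range of the members was then 0.17. The part of the seed coat in the differences was not tested.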

How the data were processed

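Whole torpedo-stage embryos of 7 accessions were measured on 11 ATH1 arrays. The authors processed the arrays with RMA in R (background correction, quantile normalisation, summary per probe set) and deposited log2 values, which were used without further normalisation. Its version was not given in the sources used here, nor was the chip definition. Array data carry no depth, and precision is limited by the number of arrays. The 64 chip controls were left out of 22810 probe sets, and 22746 were tested. The platform annotation gives 1 gene for 13513 of these, several for 503 and none for 8730, and 13436 matched the TAIR10.1 table by Entrez ID.

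Fits used limma 3.58.1 in R 4.3.3 (lmFit, eBayes, Benjamini-Hochberg over all 22746): a moderated F test over 7 accessions with 4 residual degrees of freedom, Fe-1 against Col-0, and 6 ZLL-dependent against 5 ZLL-independent arrays. They were tested on simulated data. Figures were drawn with matplotlib 3.10.9. Alternatives are given in the closing section. Members and lists were chosen with earlier results of these data known. Ribosomal loci, classes and roles come from general knowledge of the loci and were completed after the members were known, since name patterns matched few annotated symbols. Named genes are those read alone: the 10 highest, the 10 widest, the 10 steadiest, up to 4 per class, those that passed a test, 3 on each side of the limit, and the 2 brightest ribosomal genes outside it. Roles that were not certain were left out. No sequences were used.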

Additional observations from a re-analysis of the deposited data

Results flagged for a closer look

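For 61 members, those named and those that passed a test, the highest and lowest array was compared with its neighbours within the 6 ZLL-dependent and the 5 ZLL-independent arrays by Dixon's ratio at the 95% level. Of 122 groups, 17 had an array farther from the rest than this allows (13.9%), where chance alone gives about 1 in 20. Arrays of one accession are not independent, and several of the widest genes were picked for their range, so the share has no further reading.

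Van-0 was the low array of its class for the shared histone H4 set (13.25, the next at 13.96), AT3G53890 (13.31, the next at 13.63), AT2G41650 (13.03, the next at 13.30) and, by 0.02, AT3G62870 (13.88). It was the high one for the unlisted set 252973_s_at (13.30, the next at 13.09). Ler-0 was low for AT3G07230 (13.08, the next at 13.50) and AT1G20580 (12.93, the next at 13.08). Bay-0 was low for the first L39 set (13.23, the next at 13.65) and high for AT1G04660 (14.28). Nw-0 was high for AT3G49910 (13.39, the next at 13.21).

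The others were replicates of Fe-1 or Col-0. Fe-1 replicate 3 was low for AT5G56710 (14.04), AT5G15200 (13.56) and AT1G48830 (13.15), and Fe-1 replicate 1 was high for AT2G37660 (13.18). Col-0 replicate 1 was high for AT1G04660 (14.24) and AT1G52300 (14.02), and Col-0 replicate 3 was low for AT5G15200 (13.61). Their distances to the next array were between 0.01 and 0.12. Whether probe mismatch, the amount of RNA or the embryos differed on these arrays was not tested.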

How the results depend on the processing

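The membership was stable: ranking by the mean of the accession means kept 192 of the 200, by the median 189, with quantile normalisation repeated 199, with arrays centred on their medians 196, without probe sets that may cross-hybridise 173, and without any 1 array 196 to 200. The median range of 0.18 was 0.23 with median centring, 0.15 to 0.18 without any 1 array, and within 1 replicate SD of the main value under the other alternatives.

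Counts of members that passed depended on the fit. Between the 7 accessions 7 passed, 37 with an intensity trend and robust prior (33 with the trend alone and 7 with the robust prior alone, both chosen after seeing the data), 14 with an ordinary F statistic, 0 at 2-fold, and 2 to 8 without any 1 array (2 without Col-0 replicate 1 or 2, and 3 without Fe-1 replicate 1 or 2). With Van-0 and Fe-1 replicates 2 and 3 left out, which was chosen after seeing the data, 0 passed. Between Fe-1 and Col-0 11 passed, 41 with the trend and robust prior (38 with the trend alone and 11 with the robust prior alone), 19 with an ordinary t statistic, 0 at 2-fold and 0 at 3-fold, and 3 to 6 without any 1 array, every one of the 6 arrays lowering the count. Without Fe-1 replicates 2 and 3, 0 passed. ZLL classes gave 0 throughout except for 2 without Van-0. The main and trend fits shared 7 of 7 and 11 of 11 calls. Of all probe sets, 31.0% passed between the 7 accessions and 29.3% between Fe-1 and Col-0. With the trend and robust prior these shares were 37.3% and 31.5%. Where a count in this section has no such share beside it, whether the members or the whole chip moved is not read from it.

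With the replicate number as a block 5 passed, and both histone sets did not (adjusted p = 0.061 and 0.074). The labels do not say that a number marks a shared batch, and same-numbered arrays deviated together by correlations of 0.23, 0.04 and 0.11, so the numbers were not taken as pairs. 5 of 6 arrays correlated best with their own number. Promoter and protein features, planned as descriptions, were not run, for want of the sequence tables. No single-gene difference between Fe-1 and Col-0 that passed changed its direction under any alternative run. With 1 array each for 5 accessions, the F test takes their spread from Fe-1 and Col-0.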
